A study of Mus musculus with 11 samples.

Results

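The genes described here encode the channel that lets calcium into the mitochondrial matrix and the subunits that gate and assemble it. Others of them encode a carrier that lets calcium out again (Slc8b1) and an inner membrane protein studied as an exchanger (Letm1). The genes are Mcu, Mcub, Smdt1, Mcur1, Micu2, Micu3, Letm1 and Slc8b1. They are 8 of the 15113 genes in the deposited table, chosen by gene symbol through their Ensembl identifiers. All 8 passed the filter on low counts that left 13025 genes to test. Their transcripts were counted by 3' tags, primed from the poly(A) tail, in C2C12, a line of mouse myoblasts that can fuse into myotubes in low serum. Labels give every library as early-stage myotubes from passages 2 to 5. Cells of the control group expressed a random-sequence short hairpin (n = 6 libraries), and those of the Drp1 group a short hairpin aimed at Drp1 (n = 5 libraries), the GTPase encoded by Dnm1l that divides mitochondria. How the hairpins were delivered, and whether the cells of a group came from 1 clone or from separate cultures, is not given in the sources used here, so the tests rest on a spread between libraries that may be only technical.

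The uniporter carries calcium down the electrical gradient of the inner mitochondrial membrane. MCU forms its pore, MCUB is a paralog that enters the same assembly and lowers its conductance, and EMRE, the product of Smdt1, is a small membrane protein without which the animal channel does not conduct. MICU2 and MICU3 are EF-hand proteins of the intermembrane space that sense calcium and help to gate the pore. NCLX, the product of Slc8b1, extrudes calcium in exchange for sodium, and LETM1 is an inner membrane protein studied as a cation-proton exchanger. In muscle, matrix calcium stimulates the dehydrogenases that feed the respiratory chain during contraction.

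Total counts ran from 12277622 to 23082617 per library. Dnm1l was at 67.1 to 86.3 CPM (counts divided by the TMM-scaled library size and multiplied by 1e+06) in control and at 14.5 to 21.0 CPM in Drp1 libraries, 23.7% of the control mean, so the hairpin's target was lower in every Drp1 library. Markers of skeletal myotubes differed more than Dnm1l. All 10 listed myotube markers fell, and their summed level was 11680 to 13130 CPM in control and 190.8 to 253.9 CPM in Drp1 libraries. Myogenin (Myog), which drives myoblast differentiation, was at 1337 and 6.58 CPM, so the Drp1 libraries went against their label of early-stage myotubes. Of 3 smooth muscle markers tested all rose (summed level 2610 to 3152 against 8130 to 9907 CPM), and of 4 fibroblast markers tested 3 rose (1352 to 1762 against 3429 to 5763 CPM). Summed levels were 0.580 to 1.57 against 2.27 to 5.03 CPM for 2 adipocyte markers and 34.8 to 44.5 against 22.8 to 29.3 CPM for 2 osteoblast markers. The leukocyte marker Cd68 was at 0.636 to 1.08 against 0.309 to 0.876 CPM. No endothelial marker was among the genes analysed, and no marker in the table was at 0 throughout a group. Other listed markers not among the genes analysed were Myh11 (smooth muscle), Thy1 (fibroblast), Adipoq and Plin1 (adipocyte), Sp7 and Ibsp (osteoblast), and Ptprc and Adgre1 (leukocyte). The part of these marker differences in the results on the calcium genes was not tested. In such bulk libraries, fewer cells of a type and less RNA per cell cannot be told apart.

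To show the DNA at the starts of the genes, 250 bases before the RefSeq start were read on GRCm38.p6 for the 6 genes with an entry; Micu3 and Slc8b1 had none. The windows of Mcu and Mcub, the pore genes that were lower, and of Smdt1, whose product works on the same pore and whose level did not pass the test, are printed so that they can be compared. They run 5' to 3' on the strand of the gene, at chr10:59616693-59616942 (minus strand), chr3:129970207-129970456 (minus strand) and chr15:82345796-82346045 (plus strand). The RefSeq start of Smdt1 differs from that of GENCODE M21, the source of the gene positions below. Its window lies inside the GENCODE gene (chr15:82338959-82349091) and not before it. The Letm1 window overlaps its GENCODE gene in part. Capitals mark matches, on either strand, to the E-box CANNTG, the cyclic AMP response element TGACGTCA, the CCAAT box CCAAT and the GC box GGGCGG.
Mcu: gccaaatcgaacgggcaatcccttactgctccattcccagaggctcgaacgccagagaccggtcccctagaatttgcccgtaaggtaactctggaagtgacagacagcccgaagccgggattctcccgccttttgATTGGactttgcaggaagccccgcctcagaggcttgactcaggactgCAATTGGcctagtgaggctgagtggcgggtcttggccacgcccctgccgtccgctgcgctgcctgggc
Mcub: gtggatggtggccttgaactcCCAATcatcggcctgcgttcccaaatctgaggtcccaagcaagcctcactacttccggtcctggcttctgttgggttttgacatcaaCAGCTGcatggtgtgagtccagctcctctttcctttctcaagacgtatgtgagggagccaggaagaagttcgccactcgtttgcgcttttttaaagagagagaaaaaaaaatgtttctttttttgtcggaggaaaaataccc
Smdt1: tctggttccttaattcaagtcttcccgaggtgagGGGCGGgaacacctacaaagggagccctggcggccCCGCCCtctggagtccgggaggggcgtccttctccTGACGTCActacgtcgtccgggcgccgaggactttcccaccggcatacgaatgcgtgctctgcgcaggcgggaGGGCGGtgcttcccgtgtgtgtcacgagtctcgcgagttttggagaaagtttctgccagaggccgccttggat
The Mcu window held 1 E-box, whose first base was at -68 from the start, and 2 CCAAT boxes, the nearer of which overlapped the E-box. The Mcub window held 1 E-box at -142 and 1 CCAAT box. The Smdt1 window held neither of these, but 3 GC boxes and 1 cyclic AMP response element at -146. The E-box, the CCAAT box and the GC box did not divide the genes by their change. Mcur1 and Micu2, which were lower as well, held no E-box, no CCAAT box and 1 GC box each. Letm1, also lower, held 1 E-box, 1 CCAAT box and 3 GC boxes. Among the 6 windows the cyclic AMP response element was found in that of Smdt1 only. Smdt1 was also the only gene of these 6 that did not pass the test, so a division by any motif would rest on 1 gene. Whether the element bears on the level of Smdt1 was not tested. Of all 32851 RefSeq windows of this length, 66.2% held an E-box, 33.8% a CCAAT box, 32.7% a GC box and 1.55% the cyclic AMP response element. The GC content was 60.8% for Mcu, 48.0% for Mcub and 63.2% for Smdt1, beside a median of 52.4% over all windows. A match is a description of letters and not of binding.

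The pore gene Mcu was lower in Drp1 libraries, its paralog Mcub less so, and 6 of the 8 genes were lower while none was higher. The 6 were Mcu, Slc8b1, Mcub, Mcur1, Letm1 and Micu2 in order of size, and Micu3 and Smdt1 did not pass. With edgeR's quasi-likelihood test at an adjusted p under 0.05, 67.1% of all genes tested were called, 33.3% lower and 33.9% higher. A count of 6 called among 8 is close to that background. All 6 were lower. The median log2 fold change of the 8 genes was -0.51, against 0.03 over all genes tested. The same 6 genes were those whose libraries did not overlap between groups, which held for 48.9% of all genes tested, 25.4% with the Drp1 libraries lower.

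**Figure D1:**
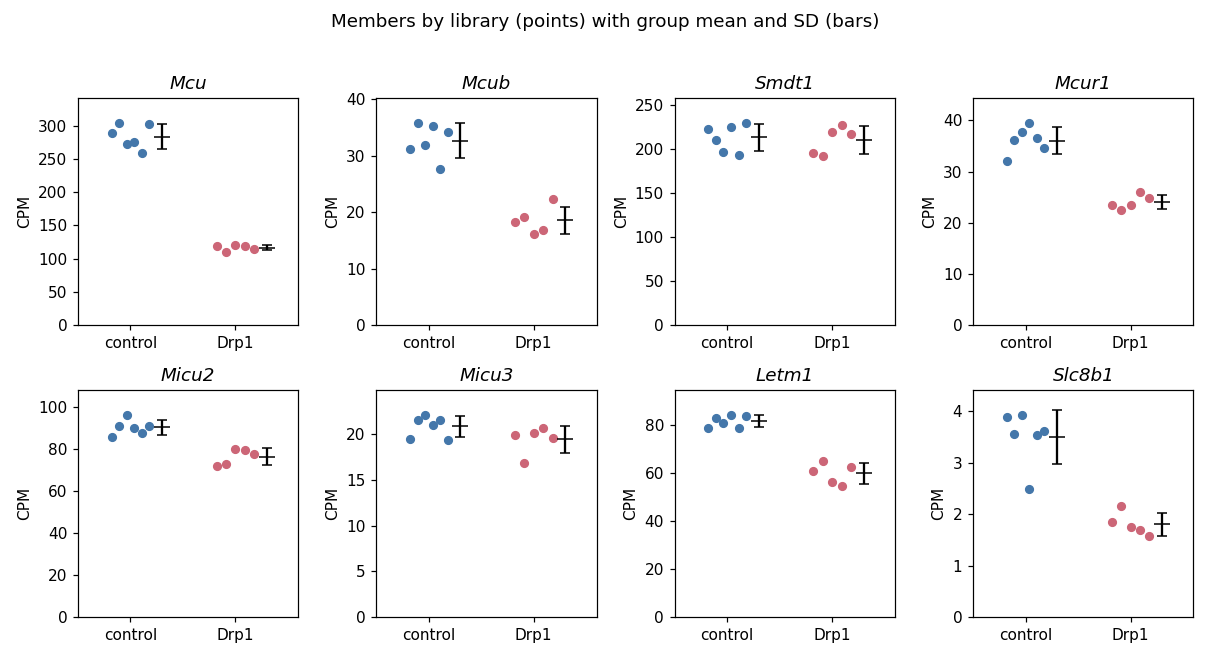
Level of each of the 8 genes in CPM (vertical axis, from 0) in each control and Drp1 library (points), with the group mean and SD (bars). The Mcu points of the groups are far apart, at 258.4 to 304.5 and 110.4 to 120.5 CPM, while those of Smdt1 lie over each other.

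Mcu (ENSMUSG00000009647) lies at chr10:59446984-59616692 on the minus strand of GRCm38. Its level in control libraries had a lowest value of 258.4, a median of 282.2 and a highest of 304.5 CPM. In Drp1 replicates 1 to 5 it was 118.7, 110.4, 120.5, 118.5 and 114.4 CPM. Every Drp1 library was far below every control library, and the Drp1 libraries were close to each other. The mean was 283.6 ± 18.3 CPM (SD, n = 6) in the control group and 116.5 ± 4.05 CPM (SD, n = 5) in the Drp1 group, or 41.1% of control. On the log2 scale the change was -1.28 (SE 0.06, 95% interval -1.41 to -1.16, adjusted p = 8.6e-11, edgeR). Over all genes tested, 11.2% had a lower log2 fold change than Mcu.

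Mcub (ENSMUSG00000027994, chr3:129914960-129970206, minus strand) encodes the paralog that dampens the channel. Its level in control libraries had a lowest value of 27.6, a median of 33.0 and a highest of 35.9 CPM. In Drp1 replicates 1 to 5 it was 18.3, 19.2, 16.2, 16.9 and 22.3 CPM. The groups did not overlap, and Drp1 replicate 5 was the nearest to the control libraries. Mcub fell to 56.9% of the control mean, with a log2 fold change of -0.82 (SE 0.10, 95% interval -1.02 to -0.61, adjusted p = 3.3e-06, edgeR).

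Smdt1 (ENSMUSG00000022452, chr15:82338959-82349091, plus strand), which encodes EMRE, was at much the same level in the groups. Control libraries had a lowest value of 194.0, a median of 216.9 and a highest of 230.4 CPM. Drp1 replicates 1 to 5 were at 195.9, 192.6, 219.9, 227.9 and 217.2 CPM. The groups overlapped over nearly their whole range. The log2 fold change was -0.02 (95% interval -0.16 to 0.12, adjusted p = 0.81, edgeR), and its sign differed between scalings. With this scaling the interval lay well short of the change of Mcu, and it covers counting and library spread only.

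Mcur1 (ENSMUSG00000021371, chr13:43538393-43560191, minus strand) encodes an inner membrane protein that binds MCU and EMRE and takes part in building the complex. Its control libraries had a lowest value of 32.01, a median of 36.3 and a highest of 39.6 CPM. Drp1 replicates 1 to 5 were at 23.5, 22.4, 23.5, 26.1 and 24.9 CPM, all below the control libraries. Mcur1 fell to 66.8% of the control mean, with a log2 fold change of -0.58 (SE 0.07, adjusted p = 4.7e-06, edgeR).

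The gating subunits had smaller log2 fold changes. Micu2 (ENSMUSG00000021973, chr14:57916261-57999262, minus strand) encodes an EF-hand subunit that helps to keep the pore shut at low calcium. Its control libraries had a lowest value of 85.5, a median of 90.6 and a highest of 96.3 CPM. Drp1 replicates 1 to 5 were at 71.9, 72.7, 80.1, 79.7 and 77.7 CPM, so the groups were close without overlapping. Micu2 fell to 84.7% of the control mean (log2 fold change -0.24, SE 0.05, adjusted p = 0.0013, edgeR).

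Micu3 (ENSMUSG00000039478, chr8:40307458-40386308, plus strand) encodes the EF-hand subunit known mainly from neurons, where it favours calcium uptake. Control libraries had a lowest value of 19.3, a median of 21.2 and a highest of 22.1 CPM. Drp1 replicates 1 to 5 were at 19.9, 16.9, 20.03, 20.6 and 19.5 CPM. The groups overlapped, and Drp1 replicate 2 was below all the other libraries. The log2 fold change was -0.10 (95% interval -0.26 to 0.06, adjusted p = 0.26, edgeR).

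**Figure D2:**
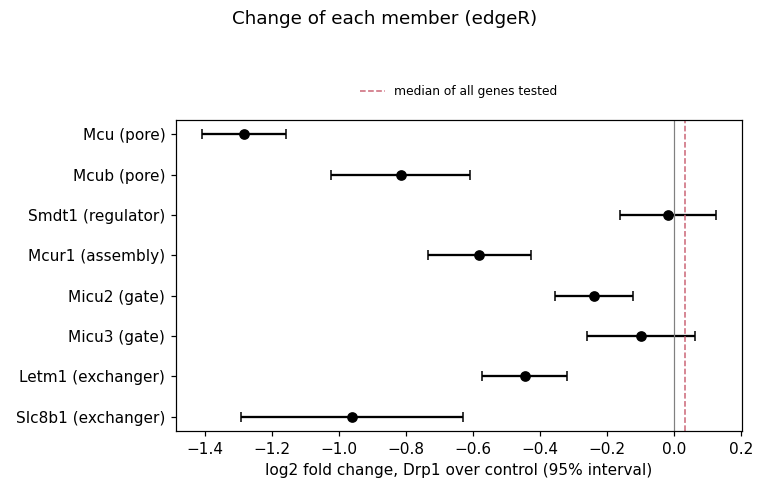
Log2 fold change of each of the 8 genes (horizontal axis, Drp1 over control; points) with its 95% interval (bars), from pore genes at the top to exchangers at the bottom. The intervals of Smdt1 and Micu3 cross 0, the other 6 lie below it, and the dashed line marks the median of all genes tested at 0.03.

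Of the exchangers, Letm1 (ENSMUSG00000005299, chr5:33739673-33782817, minus strand) had control libraries with a lowest value of 78.6, a median of 81.9 and a highest of 84.3 CPM. Drp1 replicates 1 to 5 were at 61.0, 64.9, 56.1, 54.7 and 62.7 CPM. No Drp1 library reached the control range, and the control libraries varied little. Letm1 fell, with a mean of 81.5 ± 2.53 CPM (SD, n = 6) against 59.9 ± 4.35 CPM (SD, n = 5), a log2 fold change of -0.45 (SE 0.06, adjusted p = 1e-05, edgeR).

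Slc8b1 (ENSMUSG00000032754, chr5:120511168-120534024, plus strand), the sodium-calcium exchanger that empties the matrix, was the least counted of the 8 genes, with 27 to 79 counts per library. Its control libraries had a lowest value of 2.49, a median of 3.59 and a highest of 3.93 CPM. Drp1 replicates 1 to 5 were at 1.86, 2.17, 1.75, 1.70 and 1.57 CPM. The groups did not overlap, and control replicate 4 was the control library nearest to the Drp1 libraries. Slc8b1 fell to 51.6% of the control mean, with a log2 fold change of -0.96 (SE 0.15, 95% interval -1.29 to -0.63, adjusted p = 6.8e-05, edgeR). Its spread between control libraries was 15.0% of the mean, where counting alone gives 12.8%, so depth sets much of its error. For Mcu the corresponding values were 6.46% and 1.41%.

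Ratios of counts within a library were compared next, which do not depend on how libraries are scaled. The levels of Mcu and Smdt1 were known when the ratios were chosen, and a ratio restates the difference of the log2 fold changes given above. Its p therefore sets the size of that difference against the spread between libraries and is no independent support for it. Tags of different transcripts may be captured unequally, so the change of a ratio is read and not its height. For every 100 Mcu counts there were 75.3 Smdt1 counts in control and 181.0 in Drp1 libraries. The log2 ratio of Smdt1 to Mcu was -0.41 ± 0.08 (SD, n = 6) with the random hairpin and 0.85 ± 0.09 (SD, n = 5) under the Drp1 hairpin, a 2.40-fold rise (two-sided exact permutation test of the group labels, p = 0.00216, adjusted over 6 ratios 0.00324). That p is the smallest this design allows, and the groups did not overlap.

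The gate to pore ratio rose as well. Micu2 counts per 100 Mcu counts were 31.9 in control and 65.6 in Drp1 libraries, a 2.06-fold rise of the ratio. The log2 ratio had a lowest value of -1.76, a median of -1.67 and a highest of -1.50 in control libraries, and was -0.72, -0.60, -0.59, -0.57 and -0.56 in Drp1 replicates 1 to 5. Mcur1 counts per 100 Mcu counts were 12.7 and 20.7, a 1.62-fold rise. Neither ratio overlapped between groups (exact permutation tests, p = 0.00216 each, adjusted 0.00324).

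The ratio of the dampening paralog to the pore gene rose 1.38-fold, since Mcub fell less than Mcu. For every 100 Mcu counts there were 11.5 Mcub counts in control and 15.9 in Drp1 libraries. The log2 ratio was -3.12 ± 0.10 (SD, n = 6) and -2.66 ± 0.22 (SD, n = 5), without overlap between groups (exact permutation test, p = 0.00216, adjusted 0.00324). The Drp1 libraries spread more than the control libraries, from -2.90 in replicate 3 to -2.36 in replicate 5. These 4 ratios share Mcu as the denominator and are not independent of each other.

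Changes of the ratios without Mcu were smaller than those of Smdt1, Micu2 and Mcur1 to Mcu. The log2 ratio of Micu3 to Micu2 was -2.12 ± 0.07 (SD, n = 6) against -1.98 ± 0.09 (SD, n = 5) in the Drp1 group, with overlap (exact permutation test, p = 0.0216, also 0.0216 when adjusted). Without Drp1 replicate 1 it did not pass (difference 0.11, exact permutation p = 0.0571). The log2 ratio of Letm1 to Slc8b1 was 4.54 ± 0.27 (SD, n = 6) and 5.03 ± 0.15 (SD, n = 5), a 1.40-fold rise with overlap through control replicate 4 (exact permutation test, p = 0.013, adjusted 0.0156).

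**Figure D3:**
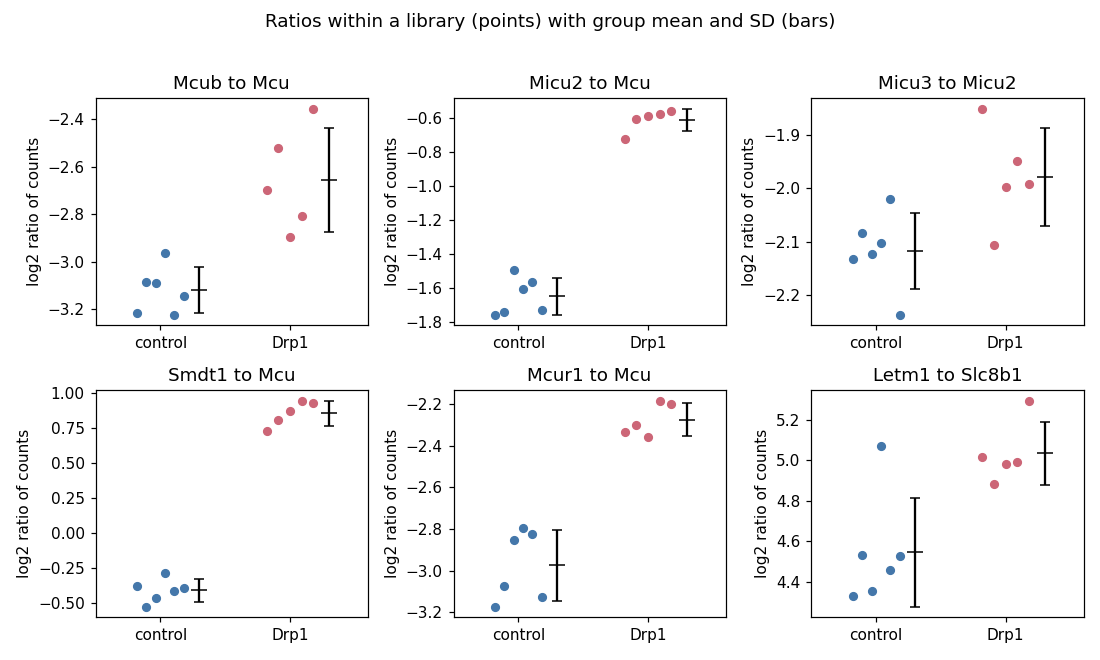
Log2 ratio of the counts of 2 genes within each library (vertical axis) for 6 pairs, with control and Drp1 libraries as points and the group mean and SD as bars. The 4 ratios to Mcu are without overlap, all Drp1 libraries being above all controls, while Micu3 to Micu2 and Letm1 to Slc8b1 overlap.

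Summed, the 8 genes held 0.0691% to 0.0763% of all counts in control libraries and 0.0528% to 0.057% in Drp1 libraries. Neighbours within 1 Mb on each side were counted too, beside the 33.3% lower and 33.9% higher of all genes tested. Around Mcu 11 of 17 tested neighbours were lower and 3 higher (median log2 fold change -0.42), around Slc8b1 9 of 16 and 6 (median -0.30), around Smdt1 16 of 35 and 5 (median -0.12), and around Mcur1 2 of 5 and 1 (median -0.17). Around Mcub none of 10 was lower and 5 were higher (median 0.60), around Micu2 1 of 12 and 4 (median 0.24), around Micu3 3 of 10 and 5 (median 0.24), and around Letm1 6 of 30 and 11 (median 0.13). Neighbours of the 6 lower genes thus differed in their direction. No annotated exon of another gene lay within the last 500 bases of any of the 8 genes.

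Genes related to mitochondrial calcium were called in both directions, as were all genes tested (33.3% lower and 33.9% higher). Of 54 listed genes outside the 8, 48 were tested, of which 22 were lower, 13 higher and 13 not called, with a median log2 fold change of -0.19. Among 9 partners and turnover factors of the uniporter, 5 were lower and 1, the protease gene Spg7, was higher (log2 fold change 0.43, edgeR adjusted p = 0.00014; median of the list -0.30). Phb2, a prohibitin scaffold of the inner membrane, had a log2 fold change of -0.45 (edgeR, adjusted p = 1e-04). Slc25a23, Prmt1, Phb and Afg3l2 were the other lower genes of this list.

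Of the inner membrane exchange and permeability genes, 4 of 10 tested were lower and 4 higher (median 0.03), close to the shares over all genes. Efhd1, an EF-hand protein of mitochondria, fell from 17.4 to 0.240 CPM, where the Drp1 libraries held 20 counts in all, so the size of the change is uncertain. Ucp2, an uncoupling protein family member, fell from 43.1 to 17.5 CPM (adjusted p = 1.7e-09, edgeR). Ghitm, an inner membrane protein linked to calcium-proton exchange, fell from 407.8 to 187.3 CPM, and Ppif, the cyclophilin that sensitises the permeability transition, rose from 1.93 to 6.97 CPM. Ghitm and Ppif were chosen after their values were seen.

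Of the plasma membrane relatives of Slc8b1, 3 of 8 were tested, 2 were higher and none was lower, beside 33.9% higher and 33.3% lower of all genes tested. Of those left out by the filter, Slc24a4 held 23 counts in all control and 0 in all Drp1 libraries. Slc8a3, also left out, held 6 and 33. Slc24a3, a potassium-dependent sodium-calcium exchanger, rose from 24.1 to 55.3 CPM (log2 fold change 1.20, adjusted p = 7.8e-06, edgeR). Slc8a2 rose from 0.0898 to 0.983 CPM, on 10 counts in all control libraries, so its fold is uncertain. It passed the filter through the Drp1 libraries, where it was high. Slc8a1 was at 1.51 and 1.09 CPM (adjusted p = 0.27, edgeR).

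At the outer membrane and its contacts with the reticulum, 9 of 18 genes were lower and 4 higher (median -0.19), beside 33.3% and 33.9% of all genes tested. Hspa9, the matrix chaperone that also bridges VDAC to the inositol trisphosphate receptor, had a log2 fold change of -1.13 and Itpr1, such a receptor, of 1.54 (adjusted p = 1e-09 and 1.2e-07, edgeR). Of 8 matrix dehydrogenase and phosphatase genes, 4 were lower and 2 higher (median -0.29), beside the same shares of all genes. Dld, the subunit shared by the pyruvate and oxoglutarate dehydrogenases, fell from 101.0 to 36.2 CPM. Pdp2, a pyruvate dehydrogenase phosphatase that unlike its paralog Pdp1 is not known to need calcium, rose from 6.33 to 22.7 CPM. Pdp1, chosen after its values were seen, rose from 14.8 to 23.3 CPM.

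**Figure D4:**
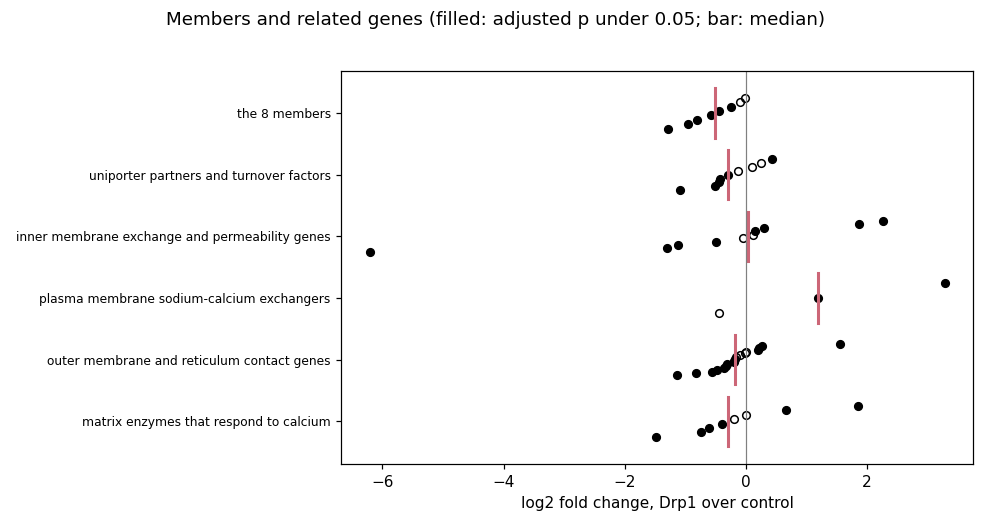
Log2 fold change (horizontal axis, Drp1 over control) of the 8 genes and of the tested genes of 5 related lists (rows), with filled points for an adjusted p under 0.05 and a bar at the median. The 8 genes have none above 0, while the lists hold points on both sides, among them Efhd1 at -6.20 and Slc8a2 at 3.28.

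For scale within the mitochondrion, 46 genes with symbols of complex I subunits and assembly factors (starting Ndufa, Ndufb, Ndufc, Ndufs or Ndufv, chosen after results were known) had a median log2 fold change of -0.27, with 26 lower and 6 higher, where 33.3% and 33.9% of all genes tested were. Of these, 3 had a lower log2 fold change than Mcu.

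By level over the 11 libraries, the genes most like Mcu among 8123 with a mean of at least 10 CPM were Rab10, Fam171a2, Hes6, Dio2 and Bcl6, with Pearson correlations of log2 CPM from 0.9992 down to 0.9975. The points share the group difference, and 1702 genes had a correlation over 0.9. After the group means were taken out the correlations of these 5 genes with Mcu ran from 0.928 for Rab10 to 0.768 for Bcl6, as a description of genes chosen for their likeness. Rab10, a GTPase of vesicle traffic, fell from 587.3 to 350.7 CPM, and Dio2, which activates thyroid hormone, from 146.1 to 2.74 CPM. The log2 fold changes of these genes, -0.74 for Rab10 and -5.71 for Dio2, lay on both sides of that of Mcu.

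The 6 calls did not depend on the scaling or on a single library. The log2 fold change of Mcu ran from -1.32 to -1.18 over 20 alternatives, that of Slc8b1 from -1.04 to -0.86 over 19 and that of Micu2 from -0.26 to -0.14 over 20. Library totals alone gave the smallest change of Micu2, -0.14 in place of -0.24. Each remained past the threshold throughout, as did Mcub, Mcur1 and Letm1. Micu3 ran from -0.12 to -0.0008 and Smdt1 changed sign in 8 of 20 alternatives, and neither passed in any.

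**Figure D5:**
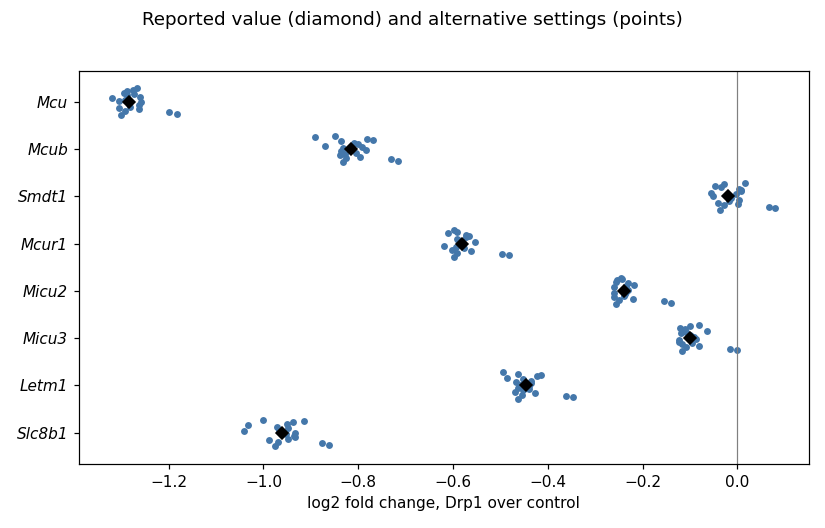
Log2 fold change of each of the 8 genes (horizontal axis, Drp1 over control) as reported (diamonds) and under each alternative scaling, filter, tool or set of libraries (points). Points of Smdt1 lie on both sides of 0, from -0.06 to 0.08, and those of the other 7 genes stay below it.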

How the data were processed

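Libraries were assigned to the control (n = 6) and Drp1 (n = 5) groups by the hairpin in their titles. Per the series text, 3' libraries were made with QuantSeq and aligned in BlueBee; its aligner, counter, strand setting and annotation: not given in the sources used here. Builds GRCm38 and mm10 and the tool DESeq2 (version 1.22.2) come from the submitters' processing notes. The first deposited table has raw counts, 1 whole number per gene and library. The authors' second table holds a signal per gene, equal to the raw count over 1 size factor per library (0.786 to 1.34), and was used only for that check.

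Symbols were matched for 15080 of 15113 identifiers, and positions come from GENCODE M21. The test was edgeR's (version 4.0.16, under R version 4.3.3, with filterByExpr, minimum count 10, TMM, robust quasi-likelihood fit on the group, Benjamini-Hochberg over all genes, threshold 0.05), a step tested on simulated data. The simulation changed a far smaller share of genes than was called here, evenly in both directions. It therefore does not test the scaling or the calls where most genes differ. CPM values use TMM-scaled library sizes. Standard errors were the absolute log2 fold change over the square root of F. Ratios used counts plus 0.5. Replicate pairs differed beyond counting noise (chi-square over degrees of freedom 5.43 to 63.3), so each was counted. Alternatives were other scalings and filters, DESeq2 version 1.42.0, limma-voom (limma version 3.58.1), the replicate number as a block and leaving out libraries. Named are the 8 genes, Dnm1l, of each related list the 2 genes with the smallest adjusted p, and the 5 genes most like Mcu. Listed markers that were not among the genes analysed are named too. The other named genes were chosen after their values were seen, and Slc25a23, Prmt1, Phb, Afg3l2, Slc8a1, Slc8a3, Slc24a4, Myog and Cd68 belong to these. The genes and lists were chosen with earlier results of these data known. A gene of the related lists is not reported here.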

Additional observations from a re-analysis of the deposited data

Results flagged for a closer look

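In 28 groups of values tested for a sample far from the others, 3 were found, and chance gives about 1 in 20. The groups share genes and are not independent, so the 3 cannot be set directly against that rate. Slc8b1 in control replicate 4 was at 2.49 CPM, where the next control library was at 3.55 CPM. The log2 ratio of Letm1 to Slc8b1 in the same library, which uses the same Slc8b1 count, was 5.07, beside 4.53 in the next. The log2 ratio of Micu2 to Mcu in Drp1 replicate 1 was -0.72, beside -0.60 in the next.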

How the results depend on the processing

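Mcu, Mcub, Mcur1, Micu2 and Letm1 kept their direction and call under 20 alternatives and Slc8b1 under 19, since it had too few counts for the stricter filter. Scaling by library totals or upper quartiles shifted the median of all genes from 0.03 to 0.13 and 0.12. Smdt1 changed sign with library totals (0.0803), upper quartiles (0.0659), the stricter filter (0.0005), the replicate block (0.0033) and with both control replicate 1 and Drp1 replicate 2 left out (0.0161, chosen after seeing the data), and ran from -0.0565 to 0.0073 when each library was left out in turn; it never passed the threshold. The cause was not tested. The ratio of Micu3 to Micu2 ran from 0.11 to 0.17 over the left-out libraries and lost its call without Drp1 replicate 1. The replicate numbers did not pair the libraries: same-numbered libraries had correlations of their deviations from the group means from -0.238 to 0.441. With the replicate block, 4003 genes were lower and 3934 higher, and no call of the 8 genes changed (Mcu -1.26, Micu2 -0.24). With the block the mean difference of the Smdt1 to Mcu ratio was 1.27. Control replicate 6 has no Drp1 library of its number, and leaving it out gave the same value. Depth limits Slc8b1 most, and intervals cover counting and library spread only.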
